A study of Drosophila melanogaster with 12 samples.

Results

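T4 neurons of the adult Drosophila melanogaster optic lobe were compared with all neurons of the sorted tissue, 3 RNA sequencing libraries against 3, which are 6 of the 12 libraries of the study. The members of the comparison were taken from the labels and column names and not from any measured value. All 4 sorted populations came from Canton-S adults aged 3 days in which a Gal4 driver line expressed UAS-Red Stinger, a nuclear red fluorescent protein. T4 libraries came from cells of a T4 driver line, and neuron libraries from cells of the Elav driver, which is active in neurons at large. The remaining 6 libraries were of Pm2 neurons of the medulla and of glia sorted with the Repo driver. The labels call every sample optic lobe neurons, while the protocol speaks of dissected brains, so the neuron libraries may also hold neurons of the central brain. The neuron sort can include T4 cells. Population and driver line cannot be told apart in this design. The labels do not say whether libraries of a population came from separate groups of flies. The p-values thus measure the spread between libraries, estimated within all 4 populations together, and that spread may be technical.

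T4 cells are small columnar neurons that carry dendrites in the innermost layer of the medulla and send axons to the lobula plate. Together with T5 they are the first neurons of the fly visual system known to respond to motion in a preferred direction, and T4 cells serve the pathway for light increments. Their known inputs are cholinergic (Mi1 and Tm3), glutamatergic (Mi9) and GABAergic (Mi4, C3 and CT1), and T4 cells themselves release acetylcholine.

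Library totals were 44522117 to 48441795 counts in T4 and 35012892 to 44502669 counts in neurons. A count was recorded for 9954 to 10219 genes in the T4 libraries and for 10777, 12742 and 11318 genes in neuron libraries 1 to 3. Mitochondrially encoded genes took 0.719% to 0.757% of counts in T4, and 1.49%, 2.99% and 4.34% in neuron libraries 1 to 3. Over the genes tested, log2 levels had Pearson correlations of 0.953 to 0.956 within T4, 0.950 to 0.963 within neurons and 0.882 to 0.906 between the populations, as a description across genes. Levels are given in CPM, counts per 1000000 counts of the library total adjusted by trimmed mean of M values (TMM). A set of 3 counts over a whole population corresponded to 0.0194 CPM in T4 and 0.0239 CPM in neurons. The kits used do not mark strand, so reads of genes whose exons overlap on opposite strands could not be told apart. In sorted bulk samples, fewer cells of a type and less RNA per cell cannot be told apart.

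The markers of T4 cells were present. SoxN, a Sox factor, was measured at 1432, 1413 and 1303 CPM in the T4 libraries and at 359.9, 356 and 334 CPM in the neuron libraries. The LIM-homeodomain gene Lim1 was measured at 735, 855 and 867 CPM in T4 and 133, 112 and 101 CPM in neurons. In Pm2 and glia the means of Lim1 were 0.187 and 1.53 CPM, and those of SoxN 2.5 and 3.42 CPM. Both genes were thus high in T4, intermediate in the neuron mixture and low in the other 2 populations. Neuronal markers were present on both sides, with nSyb, a synaptic vesicle SNARE, at 2382 ± 90.1 CPM in T4 and 2997 ± 85.3 CPM in neurons (mean ± SD, n = 3). Of 18 pan-neuronal genes, 4 were called lower in T4, nSyb among them (log2 difference -0.33 ± 0.09 with its SE, edgeR adjusted p = 0.0202), and none was called higher. These 4 are 22.2% of the list, against 14.5% of all genes tested. The glial factor repo averaged 0.327 ± 0.433 CPM in T4 and 0.845 ± 0.35 CPM in neurons, against 3427 CPM in the sorted glia.

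Of 10528 genes tested, 2444 were called at an adjusted p below 0.05 (edgeR quasi-likelihood test, Benjamini-Hochberg over all genes tested), which is 23.2%. In T4, 913 genes were higher, 8.67% of those tested, and 1531 genes were lower, 14.5%. Upward differences were smaller than downward ones: 290 of the higher and 942 of the lower genes differed by at least 2-fold, and 58 of the higher and 558 of the lower genes by at least 8-fold. Only 3 genes reached 10 CPM in every T4 library and stayed under 1 CPM in every neuron library, while 45 genes showed the opposite pattern. T4 cells within the neuron sort would bound upward ratios and not downward ones, so these counts do not compare gains with losses. The share of T4 cells in the neuron sort was not measured. The T4 and neuron libraries did not overlap for 2407 of the called genes and for 2489 genes that were not called. Over all genes tested, the T4 libraries lay wholly above the neuron libraries for 2124 genes and wholly below for 2772. A lack of overlap was thus common, held for nearly all called genes, and does not by itself mark a call. Where it is given below for called genes, it describes the levels and adds no support. The split between directions depended on the processing. With the counts taken as deposited and unscaled, 1730 genes were higher and 902 lower, and the median log2 difference of all genes moved from -0.06 to 0.22. Quantile normalization tested with limma gave 1465 higher and 1291 lower genes with a median of 0.12, and the fit of the 6 libraries alone, with its own filter and estimate of spread, gave 1585 higher and 1814 lower. Leaving out T4 library 2 or neuron library 3 reduced the higher genes to 570 and 576. Small differences below are therefore relative to the TMM scale.

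**Figure D1:**
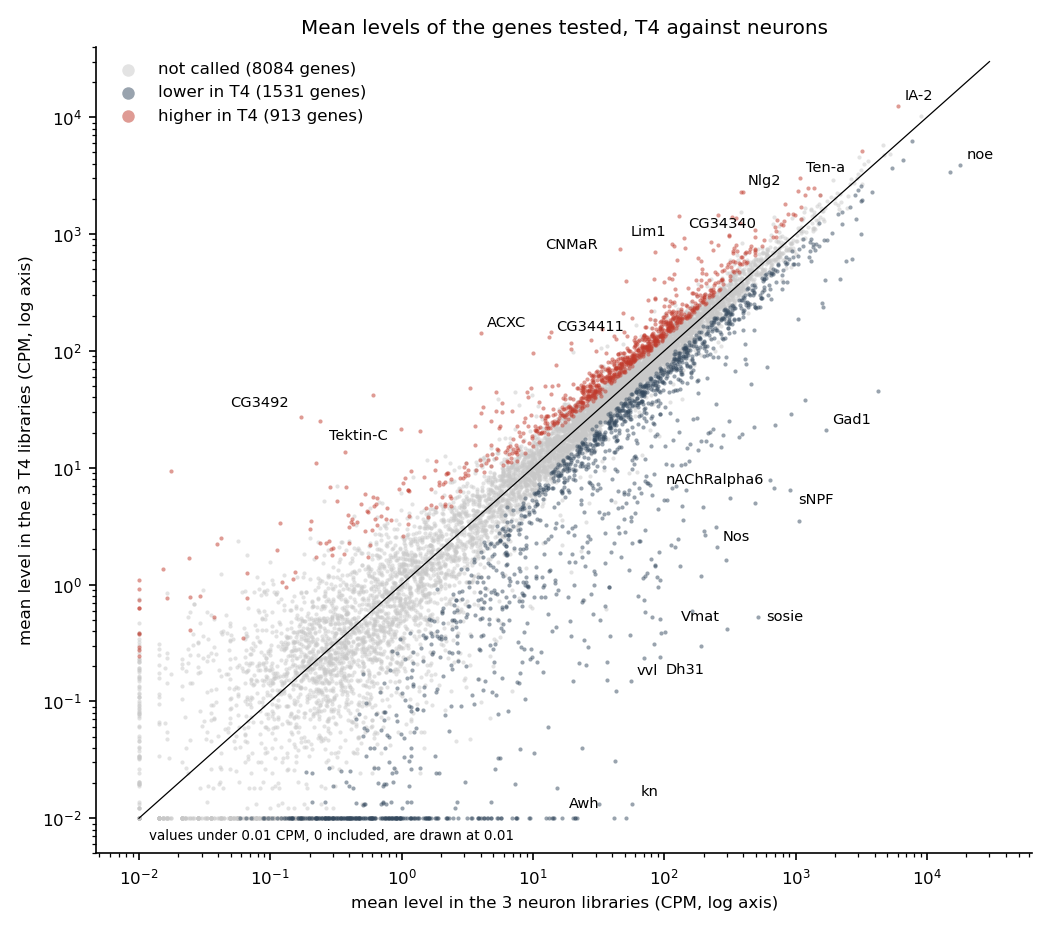
Mean level of each gene tested in the 3 neuron libraries (horizontal) and the 3 T4 libraries (vertical), in CPM on log axes, with 913 genes called higher in T4 in red, 1531 called lower in blue and the rest in grey. Points lie much farther below the line of equal levels than above it, and genes with 0 counts are drawn at 0.01.

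Transcription factors separated T4 from the neuron mixture in both directions. Of 8 listed factors of T4 and T5 cells, 5 were higher in T4 (Lim1, SoxN, Sox102F, TfAP-2 and acj6) and none was lower, with a list median log2 difference of 1.97 against -0.06 over all genes. These 5 are 62.5% of the list, against 8.67% of all genes tested. The POU factor acj6 was measured at 543, 651 and 623 CPM in T4 and 138, 129.6 and 107 CPM in neurons. Its log2 difference was 2.28 ± 0.41, where the error is here and below an SE, with an edgeR adjusted p of 0.00277. The factor TfAP-2, of the AP-2 family, was measured at 431, 434 and 401 CPM in T4 and 124, 99.4 and 101 CPM in neurons. No T4 library overlapped a neuron library for either gene. In contrast to the other 4, TfAP-2 was also abundant in Pm2, at a mean of 294 CPM.

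CG34340, a homeobox gene named Drgx in the current annotation, was the 1 higher gene among 27 tested homeodomain factors of optic lobe neurons. Its levels were 826, 973 and 979.9 CPM in T4 and 165, 133 and 129.7 CPM in neurons, a log2 difference of 2.70 ± 0.23 (edgeR adjusted p = 1.95e-05), and it averaged 0.245 CPM in Pm2 and 95.8 CPM in glia. The lowest T4 library was thus far above the highest neuron library. Of 38 zinc-finger, bHLH and related factors, 5 were higher, namely Eip93F, ab, bab1, bab2 and fkh, which are named here after their values were seen. The higher share was 13.2%, against 8.67% of all genes. The forkhead factor fkh was measured at 443, 464 and 339.8 CPM in T4 and 125, 112 and 106 CPM in neurons, a log2 difference of 1.86 ± 0.29 (edgeR adjusted p = 0.00121). The BTB-domain gene bab1 was measured at 74.1, 74.6 and 73.2 CPM in T4 and 29.4, 34.8 and 34.2 CPM in neurons, a log2 difference of 1.17 ± 0.23 (edgeR adjusted p = 0.00469). For ab, another BTB factor, glia had the highest mean of the 4 populations, 2252 CPM, against 188 ± 14.3 CPM in T4 and 77.9 ± 2.22 CPM in neurons. The calls of bab2 and Eip93F were lost without T4 library 2 or neuron library 1 or 3, and the count of 5 was then 3.

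Other factors were also higher in T4. The gene vfl, which encodes the pioneer factor Zelda of the early embryo, was measured at 306, 375 and 500.4 CPM in T4 and 55, 49.1 and 50.8 CPM in neurons (log2 difference 2.93 ± 0.55, edgeR adjusted p = 0.00364). In Pm2 and in glia vfl was near the floor, at means of 0.284 and 0.284 CPM. Its call was lost in limma, where the largest adjusted p was 0.113. The paralogs dan and danr, which encode nuclear factors of eye and antennal development and were chosen after their values were seen, were both higher. Levels of danr were 91.7, 106 and 117 CPM in T4 and 19.4, 20.8 and 18.4 CPM in neurons, and levels of dan were 42.1, 58.4 and 44.4 CPM and 10.2, 7.11 and 11.5 CPM. Their log2 differences were 2.43 ± 0.43 and 2.33 ± 0.34, with edgeR adjusted p = 0.00263 and 0.00169.

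The other 3 factors on the T4 and T5 list were not called. The GATA factor grn was measured at 35.8, 37.1 and 31.1 CPM in T4 and 4.58, 6.49 and 12.5 CPM in neurons, so the groups did not overlap, with a log2 difference of 2.14 ± 0.81 (edgeR adjusted p = 0.0914). It was called when the 6 libraries were fitted alone. The T-box gene bi was measured at 123, 166 and 148 CPM in T4 and 165, 155 and 142 CPM in neurons. The nuclear factor dac was measured at 37.7, 37.2 and 22 CPM in T4 and 21.7, 29 and 43.6 CPM in neurons. For both bi and dac the libraries of the populations overlapped.

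Factors of other optic lobe neurons were depleted. Of the 27 homeodomain factors, 19 were lower in T4, and of 10 LIM-homeodomain and POU genes, 8 were lower, namely Awh, CG32105, CG4328, Lim3, ap, pdm3, tup and vvl. Against 14.5% of all genes tested, 70.4% of the homeodomain list and 80% of the LIM-homeodomain and POU list were lower. The LIM-homeodomain gene Awh had 0 counts in all T4 libraries and 21, 22.8 and 21.5 CPM in the neuron libraries, at least 1119.5-fold lower in T4 when 3 counts over the T4 group are taken as the floor. The Iroquois gene mirr had 0 counts in T4 and 18, 27.9 and 16.9 CPM in neurons, at least 1077-fold lower. The Maf factor tj, also at 0 in T4, was measured at 12.6, 19.4 and 30.2 CPM in neurons, at least 1068-fold lower. These 3 genes were thus readily counted in neurons, with no count among the T4 libraries.

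Several factors kept single counts in T4. The COE factor kn, used by several neuron classes of the optic lobe, had 2 counts over the T4 libraries and 57.6, 59.9 and 53.6 CPM in neurons. The ratio of neurons to T4 was 4327, with a 95% counting interval of 1221 to 36450.4. The homeobox gene bsh, a marker of Mi1 neurons, likewise had 2 T4 counts and 25.3, 32.4 and 37.4 CPM in neurons. The POU factor vvl was measured at 0.327, 0.0615 and 0.0593 CPM in T4 and 49.8, 53.3 and 63.6 CPM in neurons, a log2 difference of -8.47 ± 0.74 (edgeR adjusted p = 2.7e-05). The LIM-homeodomain factor ap, used by many medulla neurons, was measured at 3.92, 2.79 and 1.31 CPM in T4 and 181, 211 and 224 CPM in neurons. The T4 levels of kn and bsh were thus nearer 0 than those of ap.

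Depletion was incomplete for some factors. The NK-2 homeobox gene scro was measured at 33.1, 18.7 and 17.8 CPM in T4 and 751, 711 and 648 CPM in neurons, a log2 difference of -4.92 ± 0.32 (edgeR adjusted p = 3.86e-06). The POU gene pdm3 was measured at 16.8, 30.4 and 17.7 CPM in T4 and 229.8, 254 and 220.1 CPM in neurons. The zinc-finger gene mamo was measured at 317, 358 and 342 CPM in T4 and 758, 746 and 873 CPM in neurons, a log2 difference of -1.23 ± 0.11 (edgeR adjusted p = 3.99e-05). Every T4 library thus still held a high level of mamo. Of the Sox genes, 2 fell while 2 others rose. The Sox gene D was measured at 0.945, 0.513 and 0.336 CPM in T4 and 213, 145 and 135 CPM in neurons. Sox21b was measured at 0.745, 0.123 and 0.712 CPM in T4 and 82.9, 81.2 and 79.4 CPM in neurons. Of 7 tested Sox and Tfap2 genes, 3 were higher and 2 lower, which is 42.9% and 28.6% against 8.67% and 14.5% of all genes. Both zinc-finger and bHLH factors (17 of 38) and class markers of lamina, medulla and lobula neurons (13 of 16) were lower above the 14.5% background.

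**Figure D2:**
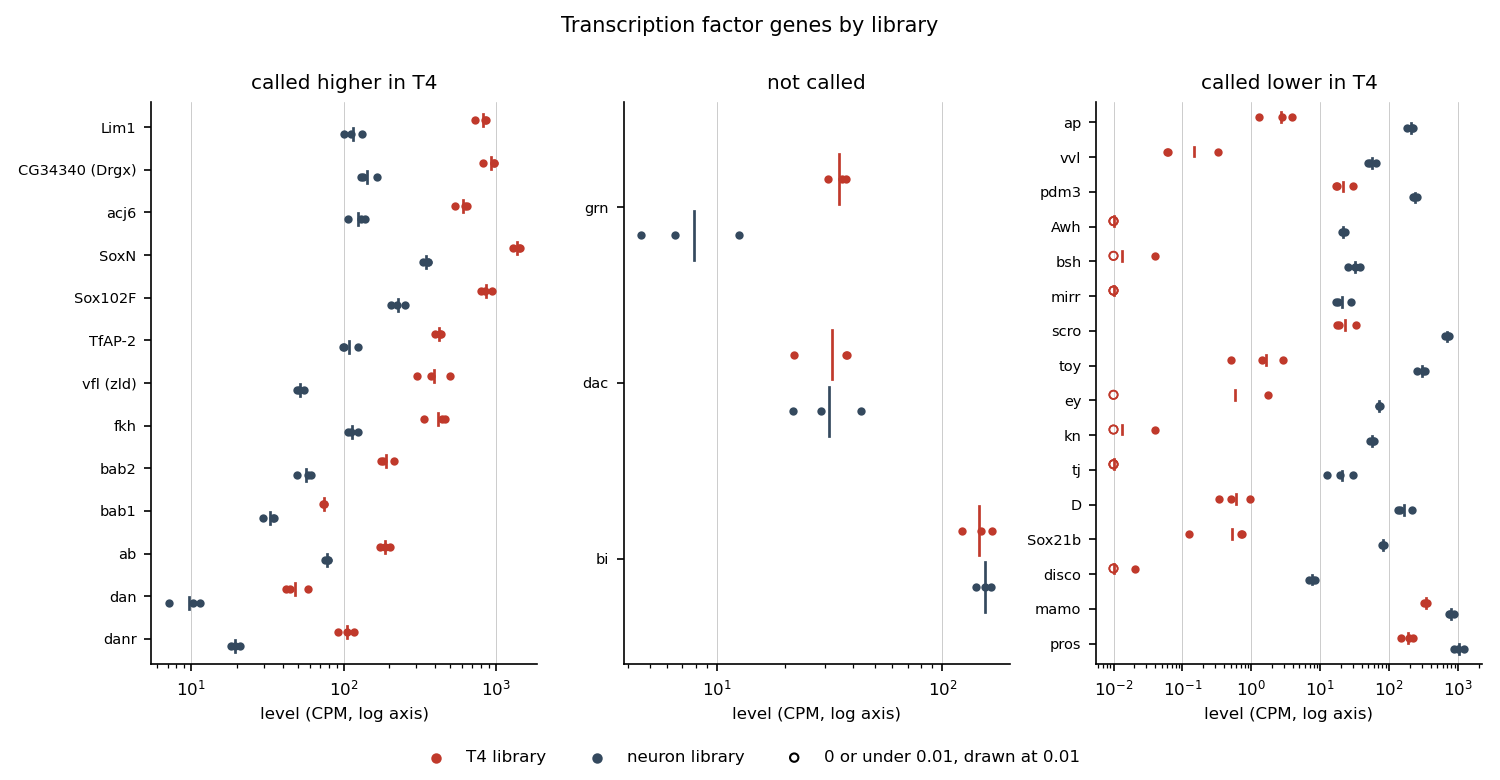
Levels of transcription factor genes in each T4 library (red) and each neuron library (blue), in CPM on log axes; bars mark group means and open circles are values of 0 or under 0.01 drawn at 0.01. The T4 and neuron libraries do not overlap for the genes in the left and right panels, while in the middle panel dac and bi overlap.

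The transmitter genes of T4 were those of cholinergic cells, at levels not distinguished from the neuron mixture. None of 4 cholinergic genes was called. VAChT, the vesicular acetylcholine transporter, was measured at 514, 651 and 553 CPM in T4 and 547, 731 and 572 CPM in neurons. The choline transporter CG7708 (ChT) was measured at 493, 721 and 591 CPM in T4 and 306, 364 and 285 CPM in neurons, with a log2 difference of 0.92 ± 0.50 (edgeR adjusted p = 0.213). The T4 libraries all lay above the neuron libraries for CG7708, whose exons share a strand with an annotated neighbour, without a call. When the 6 libraries were fitted alone, 2 of the 4 genes were higher and 1 lower.

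Some genes of other transmitters were lower. Of 9 genes of GABA and glutamate synthesis and transport, 4 were lower (Eaat1, Gad1, Gs1 and VGlut) and 1 higher, which is 44.4% and 11.1% against 14.5% and 8.67% of all genes. The call of Gs1 was lost with unscaled counts, without T4 library 1 or 2 and without neuron library 1 or 2. In the fit of the 6 libraries alone, 6 of the 9 were lower and 2 higher. Gad1, which makes GABA, was measured at 37.1, 14.9 and 10.8 CPM in T4 and 1571, 1782 and 1739 CPM in neurons. VGlut, the vesicular glutamate transporter, was measured at 39.2, 26.8 and 20 CPM in T4 and 722, 1082 and 969 CPM in neurons. T4 library 1 had the highest level of both among the T4 libraries, far below every neuron library. VGAT, which loads GABA into vesicles, was measured at 123, 119 and 114 CPM in T4 and 284, 233 and 258 CPM in neurons and was not called (log2 difference -1.13 ± 0.73, edgeR adjusted p = 0.297). VGAT was thus well above the residual level of Gad1 in the same libraries. Vmat, the vesicular monoamine transporter, was measured at 0.4, 0.841 and 0 CPM in T4 and 297, 282 and 321 CPM in neurons (log2 difference -9.51 ± 1.09, edgeR adjusted p = 0.00016). The tyrosine hydroxylase gene ple was measured at 0.0182, 0.123 and 0.969 CPM in T4 and 48.5, 52.1 and 65.3 CPM in neurons. Of 12 monoamine and histamine genes, 3 were lower (Vmat, ple and DAT), none was higher and 9 were not called. The lower share was 25%, against 14.5% of all genes.

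One transporter of GABA was higher in T4. CG1732, named Gat and encoding a GABA transporter of the plasma membrane best known from glia, was measured at 43.9, 51 and 55.6 CPM in T4 and 11.3, 12.2 and 13.8 CPM in neurons, a log2 difference of 2.01 ± 0.35 (edgeR adjusted p = 0.0023). Its mean in glia was 6967 CPM. The summed level of 14 pan-glial genes was 178 to 195 CPM in the T4 libraries and 553 to 856 CPM in the neuron libraries. CG1732 was the 1 pan-glial gene called higher in T4 (7.14%, against 8.67% of all genes). Another 5 were lower (35.7%, against 14.5% of all genes), and 3 without T4 library 2 or 3 or neuron library 2. Eaat1, a glial glutamate transporter, was measured at 5.69, 5.39 and 3.86 CPM in T4 and 353, 484 and 626 CPM in neurons. It is 1 of the 14 pan-glial genes and made up the larger part of their summed level in neurons.

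Receptors for the transmitters of the known T4 inputs differed in both directions. Of 9 tested nicotinic receptor subunits, 2 were lower in T4, nAChRalpha6 and nAChRalpha7, and none was higher. The lower share was 22.2%, against 14.5% of all genes. The subunit nAChRalpha6 was measured at 9.37, 5.78 and 4.84 CPM in T4 and 712, 678 and 665 CPM in neurons, a log2 difference of -6.68 ± 0.44 (edgeR adjusted p = 3.86e-06). The subunit nAChRalpha7 was measured at 646, 596 and 525 CPM in T4 and 1564, 1192 and 1159.6 CPM in neurons, a log2 difference of -1.15 ± 0.24 (edgeR adjusted p = 0.00616). The subunit nAChRbeta1 was measured at 962, 1016 and 1095 CPM in T4 and 1176, 1048 and 1099.8 CPM in neurons, and nAChRalpha5 at 719, 778 and 831 CPM and 619, 661 and 648 CPM. The first of these overlapped between populations, and neither was called. For nAChRbeta2, at 482, 494 and 470.2 CPM in T4 and 336, 314 and 341 CPM in neurons, no library overlapped, with edgeR adjusted p = 0.0837. Under other settings up to 4 subunits were called higher, in the fit of the 6 libraries alone. The muscarinic receptor mAChR-B, the 1 higher gene among 20 muscarinic and aminergic receptors, was measured at 235, 216 and 207 CPM in T4 and 74.2, 88 and 76.7 CPM in neurons (log2 difference 1.46 ± 0.28, edgeR adjusted p = 0.00384). It was higher still in Pm2, at a mean of 624 CPM, and its call was lost in both limma fits.

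Of 21 tested receptor genes for GABA, glutamate and histamine, 3 were higher and 8 lower, which is 14.3% and 38.1% against 8.67% and 14.5% of all genes. There were 5 lower without T4 library 1 or with unscaled counts and 4 lower without neuron library 3. CG8916, a member of the GABA and glycine receptor channel family, was measured at 739.6, 789 and 659 CPM in T4 and 279.8, 228 and 204 CPM in neurons, a log2 difference of 1.62 ± 0.25 (edgeR adjusted p = 0.00132). Neto, an auxiliary subunit of kainate-type glutamate receptors, was measured at 118, 97.1 and 111 CPM in T4 and 64.7, 54.5 and 57.1 CPM in neurons. CG9935 (Ekar), a kainate-type receptor subunit, was measured at 11.8, 12.1 and 15.8 CPM in T4 and 5.84, 6.62 and 7.28 CPM in neurons, a log2 difference of 1.01 ± 0.23 (edgeR adjusted p = 0.00864). All T4 libraries exceeded all neuron libraries for these 3 genes, although the calls of Neto were lost in both limma fits. Rdl, the main GABA-gated channel subunit, was measured at 1497, 1585 and 1588 CPM in T4 and 2589.9, 2141 and 2053 CPM in neurons. Its small difference (log2 -0.54 ± 0.16, edgeR adjusted p = 0.0337) lost its call when any 1 of the 6 libraries was left out.

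Other lower genes of this list differed more than Rdl. GABA-B-R3, a G protein-coupled GABA receptor gene, was measured at 17.2, 6.73 and 10.2 CPM in T4 and 134, 178 and 155 CPM in neurons (log2 difference -3.77 ± 0.87, edgeR adjusted p = 0.0102). The metabotropic glutamate receptor mGluR was measured at 29.5, 16.1 and 14.8 CPM in T4 and 163, 268 and 235 CPM in neurons (log2 difference -3.46 ± 0.73, edgeR adjusted p = 0.00673). The histamine-gated channel ort, which receives photoreceptor input in lamina and medulla targets, was measured at 9.25, 14.8 and 7.46 CPM in T4 and 129, 112 and 159 CPM in neurons. No T4 library of these 3 genes reached a neuron library, although the call of ort was lost in both limma fits. The NMDA receptor subunit Nmdar2 was reduced less, at 147, 114 and 121 CPM in T4 and 286, 284 and 273 CPM in neurons (log2 difference -1.14 ± 0.20, edgeR adjusted p = 0.00244).

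Of the 20 muscarinic and aminergic receptors, 8 were lower, and 5 were so without T4 library 1 or 3 or neuron library 3. The 8 are 40% of the list, against 14.5% of all genes. Octbeta1R, an octopamine receptor, was measured at 17.6, 28.9 and 20.5 CPM in T4 and 450.1, 471 and 520.4 CPM in neurons (log2 difference -4.43 ± 0.34, edgeR adjusted p = 1.1e-05). The dopamine receptor Dop1R2 was measured at 0.981, 0.697 and 0.534 CPM in T4 and 20.4, 28.7 and 22.6 CPM in neurons (log2 difference -5.01 ± 0.78, edgeR adjusted p = 0.00125). The serotonin receptor 5-HT2B was measured at 1.91, 0.861 and 0.929 CPM in T4 and 24.6, 31.9 and 33.1 CPM in neurons (log2 difference -4.59 ± 0.53, edgeR adjusted p = 0.000171). Of these, only Octbeta1R kept more than 10 CPM in each T4 library.

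Peptide and peptide receptor genes were lower more often than all genes tested. Of 35 tested peptide receptors, 16 were lower and 3 higher, which is 45.7% and 8.57% against 14.5% and 8.67% of all genes, and without neuron library 2 the count of lower genes was 10. CNMaR, the receptor of the peptide CNMamide (chromosome arm 3L, bases 9644109 to 9659433), was measured at 862, 779 and 604 CPM in T4 and 56.5, 39.1 and 42.8 CPM in neurons. The log2 difference was 4.02 ± 0.44 (edgeR adjusted p = 0.000119), and Pm2 and glia had means of 2.17 and 2.63 CPM. CG34411, named Lgr4 and encoding a leucine-rich repeat G protein-coupled receptor, was measured at 88.3, 143 and 162 CPM in T4 and 15.3, 12.9 and 11.9 CPM in neurons (log2 difference 3.29 ± 0.35, edgeR adjusted p = 9.88e-05). Its exons overlap CG12096 on the other strand. The third, CCHa2-R, a receptor for the peptide CCHamide-2, was measured at 26, 30.7 and 27.6 CPM in T4 and 8.48, 8.89 and 11.7 CPM in neurons, and its call was lost without T4 library 2 and without neuron library 1 or 2. The summed level of the receptor list was nevertheless higher in T4, at 1351 to 1642 CPM against 1017 to 1107 CPM in neurons, and CNMaR alone made up a large part of it in T4. In each of the 3 higher receptors the T4 libraries lay above all neuron libraries.

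Among the lower peptide receptors, AstA-R1, an allatostatin A receptor, was measured at 7.09, 6.83 and 7.06 CPM in T4 and 105, 128 and 137 CPM in neurons (log2 difference -4.14 ± 0.39, edgeR adjusted p = 4.67e-05). SIFaR, the receptor of SIFamide, was measured at 4.38, 3.9 and 3.72 CPM in T4 and 29.8, 30.1 and 44.3 CPM in neurons (log2 difference -3.12 ± 0.33, edgeR adjusted p = 9.38e-05). Neither was off in T4, with every library at several CPM.

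Of 29 neuropeptide genes, 14 were lower (48.3%, against 14.5% of all genes), and 9 without neuron library 2, with a list median log2 difference of -3.15. CCHa1, which encodes CCHamide-1, had 0 counts in T4 and 23.9, 15.1 and 22.1 CPM in neurons, at least 1049-fold lower. Dh31, a diuretic hormone gene, was measured at 0.236, 0.123 and 0.356 CPM in T4 and 100.4, 86 and 90.4 CPM in neurons (log2 difference -8.58 ± 1.04, edgeR adjusted p = 0.000248). The tachykinin gene Tk was measured at 12.5, 7.14 and 3.92 CPM in T4 and 668, 604 and 638 CPM in neurons (log2 difference -6.34 ± 0.82, edgeR adjusted p = 0.000391). The peptides thus ranged from no counts in T4 to several CPM. The 2 higher genes were CG13565 (Orcokinin), at 13.5, 26.5 and 13.1 CPM in T4 and 6.87, 8.17 and 6.22 CPM in neurons, and Nplp4, at 1.02, 0.738 and 0.653 CPM and 0, 0.0637 and 0.0246 CPM. Both calls were lost without neuron library 1 or 3, and Nplp4 was near 1 CPM. Of 10 genes of peptide processing, 2 were lower (20%, against 14.5% of all genes) and none higher. IA-2, a dense-core vesicle protein, was higher at 9800.0, 13680.0 and 13769 CPM in T4 against 5434, 7247 and 5429 CPM in neurons (log2 difference 1.04 ± 0.15, edgeR adjusted p = 0.000882).

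Of 22 potassium channel genes, 3 were higher and 6 lower, and of 35 sodium, calcium, chloride and TRP channel genes, 3 were higher and 5 lower. The lower share was 27.3% in the first list and 14.3% in the second, against 14.5% of all genes, and the higher shares were 13.6% and 8.57%, against 8.67%. With counts left unscaled, these became 5 higher and 3 lower, and 6 higher and 4 lower. In the first list 1 gene was higher without T4 library 2 or neuron library 2, and 3 were lower without T4 library 1 or 3. In the second list 1 gene was higher without T4 library 2 or neuron library 3, and 1 was lower without neuron library 2 or 3. Shab, a delayed-rectifier potassium channel, was measured at 1222, 1408 and 1328 CPM in T4 and 717, 790.1 and 678 CPM in neurons (log2 difference 0.86 ± 0.20, edgeR adjusted p = 0.0112). Trpm, a cation channel, was measured at 227, 279 and 276 CPM in T4 and 96, 149 and 112 CPM in neurons (log2 difference 1.13 ± 0.21, edgeR adjusted p = 0.00321), with exons that overlap ItgaPS4 on the other strand. Both genes were higher in every T4 library than in any neuron library.

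Lower channels included Ca-alpha1T, the T-type calcium channel, at 756, 743 and 876 CPM in T4 and 1456, 1595 and 1474 CPM in neurons (log2 difference -0.93 ± 0.20, edgeR adjusted p = 0.00739). SK, a calcium-activated potassium channel, was measured at 312, 369 and 320.5 CPM in T4 and 461, 491 and 439 CPM in neurons (log2 difference -0.47 ± 0.11, edgeR adjusted p = 0.00919). The calls of Ca-alpha1T and SK were lost with unscaled counts. CngA, a cyclic nucleotide-gated channel subunit, had 3 counts over the T4 libraries and 6.37, 7.32 and 8.36 CPM in neurons, a ratio of 373 with a 95% counting interval of 129 to 1842. Ork1, a leak potassium channel, had 0 counts in T4 and 1.79, 2.27 and 0.639 CPM in neurons, at least 80.6-fold lower, and averaged 272 CPM in glia. The shift was thus modest for the abundant channels and deep for these sparse ones.

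Of 5 tested innexins, the gap junction genes, Inx2 and ogre were lower, 40% against 14.5% of all genes. Both were sparse in T4, at 2.85, 1.52 and 2.04 CPM for Inx2 and 1.94, 2.07 and 1.4 CPM for ogre, and both calls were lost with unscaled counts, without T4 library 2 or 3 and without neuron library 3. In glia their means were 1021 and 841 CPM. The neuronal innexin shakB was measured at 189, 243 and 201 CPM in T4 and 364, 450.4 and 482 CPM in neurons and was not called (log2 difference -1.04 ± 0.37, edgeR adjusted p = 0.0672), although its groups did not overlap.

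Genes of cyclic AMP signalling moved in both directions: of 22 tested, 6 were higher (27.3%, against 8.67% of all genes) and 4 lower (18.2%, against 14.5%). ACXC, an adenylate cyclase of a cluster described in the male germline, was measured at 111, 174 and 139 CPM in T4 and 4.13, 5.01 and 2.93 CPM in neurons (chromosome arm 2L, bases 12912530 to 12916774). Its neighbour ACXB was measured at 13.5, 24.1 and 26.9 CPM in T4 and 1.11, 1.7 and 0.172 CPM in neurons. The log2 differences were 5.13 ± 0.34 and 4.43 ± 0.81 (edgeR adjusted p = 1.73e-05 and 0.00867). Both genes had no more than 1 of 6 libraries with a count in Pm2 and glia, as the plot of the 4 populations shows. Ac13E, a membrane adenylate cyclase, was measured at 54.7, 42.7 and 54.6 CPM in T4 and 12.4, 18 and 16.3 CPM in neurons (log2 difference 1.70 ± 0.32, edgeR adjusted p = 0.0039). The phosphodiesterase gene Pde6 was measured at 254, 277 and 268 CPM in T4 and 94.9, 118 and 119 CPM in neurons (log2 difference 1.27 ± 0.14, edgeR adjusted p = 0.000131). Of the other 2 higher genes, Ac76E lost its call without T4 library 2 or neuron library 1 or 3, and Epac when any 1 of the 6 libraries was left out.

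On the lower side, Pka-C3, a catalytic subunit related to protein kinase A, was measured at 0.472, 0.164 and 0.257 CPM in T4 and 189, 176 and 207 CPM in neurons (log2 difference -9.29 ± 0.78, edgeR adjusted p = 1.95e-05). Pde11 was measured at 6.98, 15.5 and 9.22 CPM in T4 and 114, 114 and 115 CPM in neurons (log2 difference -3.44 ± 0.35, edgeR adjusted p = 8.31e-05). One phosphodiesterase was thus higher in T4 and another lower. In the list of G protein, cyclic GMP and calcium signalling genes, 9 of 30 were lower and 1 higher. These shares of 30% and 3.33% stand against 14.5% and 8.67% of all genes. Nos, the nitric oxide synthase, was measured at 3.14, 1.78 and 1.36 CPM in T4 and 214, 280.2 and 259 CPM in neurons (log2 difference -6.90 ± 0.65, edgeR adjusted p = 4.67e-05). The diacylglycerol kinase rdgA was measured at 20.3, 15.4 and 19.5 CPM in T4 and 348, 371 and 393 CPM in neurons, and its relative Dgk at 8.07, 4.7 and 3.03 CPM and 96.4, 122 and 96.4 CPM. Their log2 differences were -4.33 ± 0.16 and -4.31 ± 0.46 (edgeR adjusted p = 2.57e-07 and 0.000102). The 1 higher gene, the phospholipase C gene norpA, was measured at 699, 771 and 716 CPM in T4 and 487, 498 and 489.9 CPM in neurons (log2 difference 0.57 ± 0.09, edgeR adjusted p = 0.00149).

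**Figure D3:**
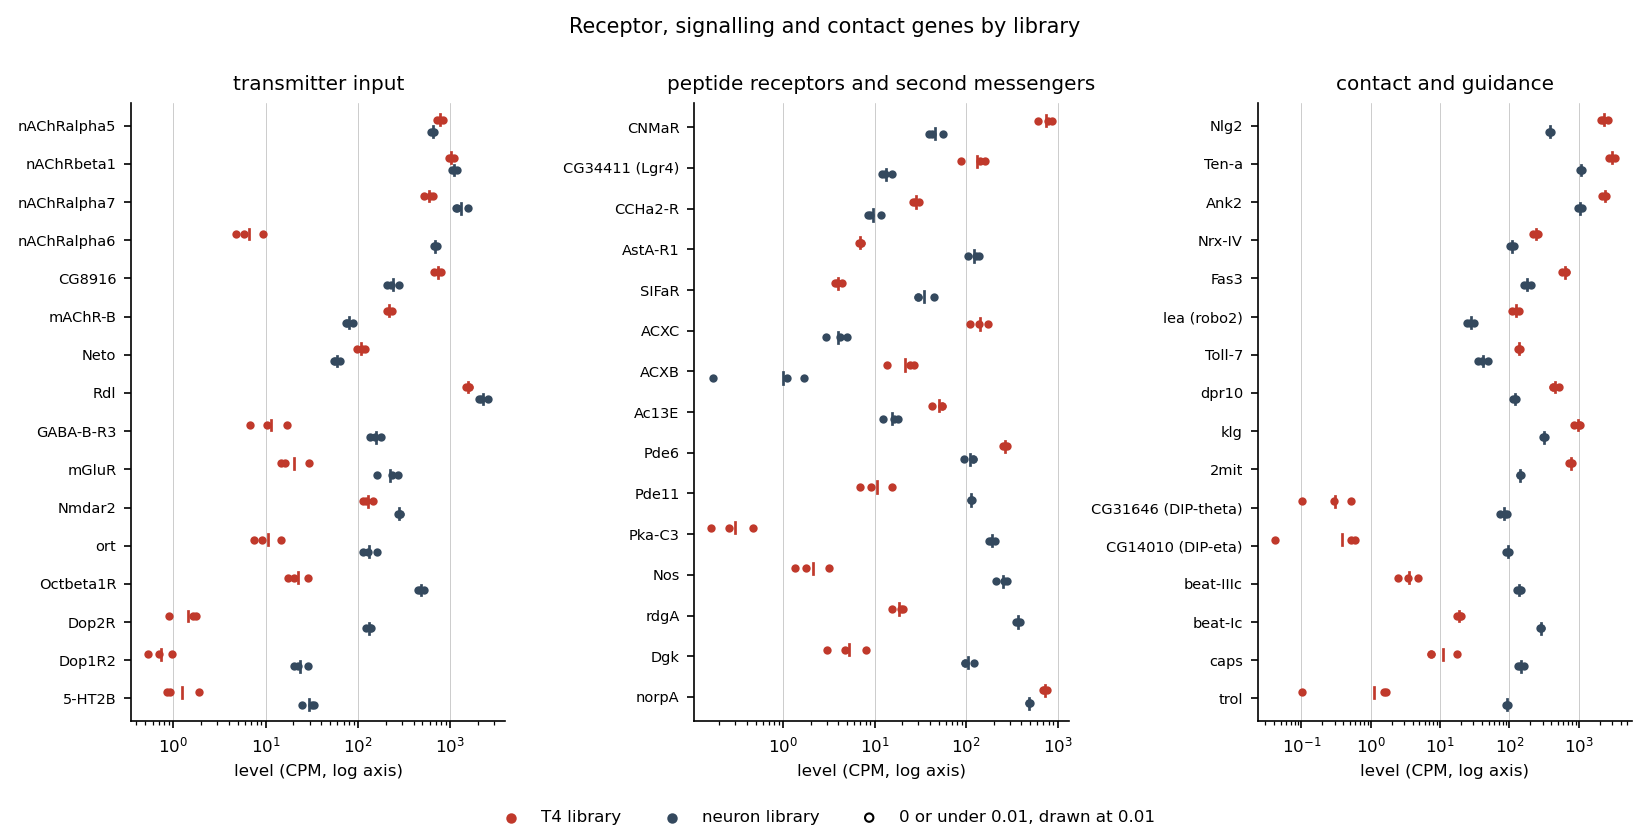
Levels of receptor, signalling and contact genes in each T4 library (red) and each neuron library (blue), in CPM on log axes, with bars at group means. Nlg2, CNMaR and ACXC lie to the right in T4, while nAChRalpha6, Pka-C3, Nos, CG31646 and CG14010 lie far to the left.

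Some genes at synaptic contacts were higher in T4. Nlg2, a neuroligin that spans the synaptic membrane (chromosome arm 2L, bases 6874900 to 6906656), was measured at 2229, 2597 and 2107 CPM in T4 and 390.2, 402 and 369.7 CPM in neurons. The log2 difference was 2.58 ± 0.17 (edgeR adjusted p = 3.86e-06), with Pm2 at 166 CPM and glia at 3.91 CPM. Nlg2 was 1 of 3 higher genes among 19 tested postsynaptic and scaffold genes, of which 3 were lower. Each share was 15.8%, against 8.67% higher and 14.5% lower of all genes. With unscaled counts 6 were higher and 2 lower. Ank2, an ankyrin of the axonal membrane skeleton, was measured at 2188, 2483 and 2368 CPM in T4 and 979, 1129 and 1049.9 CPM in neurons (log2 difference 1.16 ± 0.10, edgeR adjusted p = 1.92e-05). Nrx-IV, a neurexin family protein of septate junctions, was measured at 251, 261 and 215 CPM in T4 and 101, 109.9 and 117 CPM in neurons (log2 difference 1.15 ± 0.10, edgeR adjusted p = 2.95e-05). All 3 exceeded every neuron library in every T4 library. Of 31 genes of the active zone and vesicle release, none was higher and 6 were lower, 19.4% against 14.5% of all genes. The complexin gene cpx, a regulator of vesicle fusion, was measured at 3561, 3903 and 3583 CPM in T4 and 5071, 5426 and 5737 CPM in neurons (log2 difference -0.56 ± 0.13, edgeR adjusted p = 0.00976). The sparse synaptotagmin gene Sytbeta was measured at 0.491, 0.8 and 0 CPM in T4 and 10.3, 17.2 and 17.7 CPM in neurons (log2 difference -5.12 ± 1.41, edgeR adjusted p = 0.0291), and its call was lost in DESeq2, without T4 library 1 or 2 and without any 1 of the neuron libraries. The count of 6 fell to 1 without T4 library 1 or neuron library 3, and with unscaled counts 5 were higher and 1 lower.

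Cell-surface genes of wiring divided by family. Of 23 leucine-rich repeat, teneurin and Toll genes, 4 were higher and 4 lower, and 7 and 7 in the fit of the 6 libraries alone. Both main shares were 17.4%, against 8.67% higher and 14.5% lower of all genes. Ten-a, a teneurin of synaptic partner matching, was measured at 2717, 2971 and 3319.8 CPM in T4 and 1082, 1127 and 1042 CPM in neurons (log2 difference 1.47 ± 0.14, edgeR adjusted p = 6.36e-05). Its relative Ten-m was measured at 200.0, 200.0 and 237 CPM in T4 and 247, 336 and 309 CPM in neurons, lower by a small amount (log2 -0.49 ± 0.13, edgeR adjusted p = 0.0217) that lost its call without T4 library 1 or 2 or neuron library 2 or 3. The receptor gene Toll-7 was measured at 131, 139.8 and 136 CPM in T4 and 48.3, 35.6 and 40.4 CPM in neurons (log2 difference 1.71 ± 0.36, edgeR adjusted p = 0.00615). The leucine-rich repeat gene caps, a target-recognition molecule, was measured at 17.7, 7.4 and 7.38 CPM in T4 and 132, 141 and 159 CPM in neurons (log2 difference -3.74 ± 0.32, edgeR adjusted p = 2.17e-05). T4 cells thus had more Ten-a and Toll-7 and less caps than the mixture. The leucine-rich repeat gene 2mit, chosen after its values were seen, was measured at 765, 787 and 726 CPM in T4 and 142, 142 and 147 CPM in neurons (log2 difference 2.40 ± 0.36, edgeR adjusted p = 0.00103).

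Of 40 Ig, cadherin and fasciclin genes, 5 were higher (Cont, Fas3, Nrt, klg and mys) and 15 lower, and quantile normalization gave 6 and 9. The main shares were 12.5% and 37.5%, against 8.67% and 14.5% of all genes. Fas3, a homophilic adhesion protein, was measured at 572, 657 and 651 CPM in T4 and 204, 178 and 162 CPM in neurons (log2 difference 1.79 ± 0.22, edgeR adjusted p = 0.000257). The Ig gene klg was measured at 841, 1026 and 1003 CPM in T4 and 329.8, 301 and 311 CPM in neurons (log2 difference 1.61 ± 0.33, edgeR adjusted p = 0.00563). In Pm2, klg had a mean of 0.591 CPM. Fas2, a relative of vertebrate NCAM, was measured at 56.2, 46.3 and 31.7 CPM in T4 and 113, 97.7 and 113 CPM in neurons (log2 difference -1.27 ± 0.23, edgeR adjusted p = 0.00277). Fas2 and Fas3 therefore differed in opposite directions. The integrin subunit mys lost its call without T4 library 2 or 3 or neuron library 1 or 2.

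Of 39 guidance genes, 5 were higher and 9 lower, which is 12.8% and 23.1% against 8.67% and 14.5% of all genes. Without neuron library 3 the count of higher genes was 3. The higher genes were lea, robo, Sema-2a, dlp and fz3. The Slit receptor lea (robo2) was measured at 110.5, 136 and 124 CPM in T4 and 24.6, 31.2 and 26.6 CPM in neurons (log2 difference 2.17 ± 0.34, edgeR adjusted p = 0.00135). The semaphorin gene Sema-2a was measured at 273, 228 and 188 CPM in T4 and 129.7, 132 and 139.6 CPM in neurons (log2 difference 0.78 ± 0.14, edgeR adjusted p = 0.0024). The Slit receptor robo differed less, at 165, 209 and 187 CPM in T4 and 127, 142 and 127 CPM in neurons (log2 difference 0.50 ± 0.12, edgeR adjusted p = 0.0126), and lost its call without T4 library 2 or neuron library 3. On the lower side, trol, the matrix proteoglycan perlecan, was measured at 1.54, 0.103 and 1.66 CPM in T4 and 94, 90.3 and 93 CPM in neurons, and at a mean of 1448 CPM in glia. Neurons thus held trol at about 90 CPM and T4 at 2 CPM or less.

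Members of the paired Ig families were lower more often than all genes tested. In the list of 29 dpr and DIP members, 13 were lower and 1, dpr10, was higher, and of 21 beat and side genes, 12 were lower and 2 higher. The lower shares were 44.8% and 57.1%, against 14.5% of all genes. The summed level of the dpr and DIP list overlapped between populations, at 4026 to 4500.5 CPM in T4 and 4361 to 4501 CPM in neurons. The fit of the 6 libraries alone gave 21 lower and 4 higher genes in the first list. These proteins bind one another across synaptic partners. CG31646 (DIP-theta) was measured at 0.527, 0.103 and 0.297 CPM in T4 and 93.5, 72.4 and 84.9 CPM in neurons (log2 difference -8.05 ± 0.58, edgeR adjusted p = 2.88e-05). CG14010 (DIP-eta) was measured at 0.6, 0.041 and 0.514 CPM in T4 and 96.3, 88.1 and 99.1 CPM in neurons (log2 difference -7.91 ± 1.10, edgeR adjusted p = 0.000595). Both DIP genes were below 1 CPM in all T4 libraries. The gene beat-IIIc was measured at 4.81, 3.45 and 2.45 CPM in T4 and 143, 128 and 146 CPM in neurons, and beat-Ic at 19.6, 17.7 and 19.8 CPM and 282, 277 and 289 CPM. Their log2 differences were -5.28 ± 0.36 and -3.90 ± 0.51 (edgeR adjusted p = 4.24e-06 and 0.000392). The higher members of the second list were beat-IIIb, at 568, 582 and 515 CPM in T4 and 377, 346 and 415 CPM in neurons, and CG42313 (side-II), at 598, 878 and 824 CPM and 317, 358 and 341 CPM. The adjacent family members beat-IIIb and beat-IIIc differed in opposite directions. Another family member, dpr (dpr1 in the current annotation), was left out of the list by its symbol and is given here after its values were seen. It was measured at 920.2, 1029.9 and 1027 CPM in T4 and 309, 326 and 304 CPM in neurons (log2 difference 1.66 ± 0.51, edgeR adjusted p = 0.0363) and called higher, and its call was lost when any 1 of the 6 libraries was left out.

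Genes of the Notch, Wnt, BMP, FGF, EGF and Hedgehog pathways differed in both directions. Of 41 tested, 3 were higher and 8 lower, which is 7.32% and 19.5% against 8.67% and 14.5% of all genes. The TGF-beta ligand gene mav was measured at 272, 299 and 244 CPM in T4 and 75.9, 81.3 and 67.7 CPM in neurons (log2 difference 1.86 ± 0.15, edgeR adjusted p = 1.26e-05). This call held in all 15 alternatives. The FGF ligand pyr was measured at 44.1, 46.2 and 42.3 CPM in T4 and 6.61, 8.09 and 12.3 CPM in neurons without overlap, yet its call was lost when any 1 of the 6 libraries was left out, as was that of the Hedgehog receptor component smo. The count of 3 was then 1.

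Of 33 tubulin, kinesin, dynein and myosin genes, 7 were higher, 1 was lower and 25 were not called. These are shares of 21.2% and 3.03%, against 8.67% and 14.5% of all genes, a difference that was not tested. With unscaled counts these numbers were 13 and 1. The unconventional myosin VI gene jar was measured at 523, 554 and 546 CPM in T4 and 272, 285 and 253 CPM in neurons (edgeR adjusted p = 0.00244). The dynein heavy chain gene Dhc64C was measured at 147, 178 and 222 CPM in T4 and 75.7, 102 and 104.1 CPM in neurons (log2 difference 0.96 ± 0.17, edgeR adjusted p = 0.00234). The myosin VII gene ck was measured at 17.4, 28.5 and 23 CPM in T4 and 0.843, 6.35 and 3.71 CPM in neurons (log2 difference 2.65 ± 0.61, edgeR adjusted p = 0.0103). T4 libraries did not overlap neuron libraries for any of these genes. The formin gene Fhos, an actin regulator, was measured at 85, 93.1 and 109 CPM in T4 and 8.93, 12.7 and 8.48 CPM in neurons (log2 difference 3.25 ± 0.19, edgeR adjusted p = 2.51e-06).

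A few ciliary genes were present in T4, though sensory neurons are the ciliated neurons of the fly. Tektin-C, which encodes a filament protein of axonemes, was measured at 30.4, 21.1 and 23.5 CPM in T4 and 0.342, 0.0849 and 0.295 CPM in neurons (log2 difference 6.73 ± 0.44, edgeR adjusted p = 3.86e-06). It was also present in Pm2 and in glia, at means of 89.1 and 35.8 CPM. Rfx, a regulator of ciliary genes, was measured at 57.9, 53.5 and 54.5 CPM in T4 and 31, 35.8 and 33.9 CPM in neurons (log2 difference 0.72 ± 0.11, edgeR adjusted p = 0.00143). Of 18 tested ciliary genes these 2 were higher and 1 was lower, a share near the background, and their summed level was 131 to 144 CPM in T4 and 97.8 to 117 CPM in neurons.

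Genes of metabolism and protein synthesis were lower in T4 or not called. Of 13 mitochondrially encoded genes, 12 were lower (92.3%, against 14.5% of all genes), with a list median log2 difference of -2.12. The cytochrome oxidase subunit mt:CoII was measured at 404, 429 and 386 CPM in T4 and 1173, 1653 and 2239.6 CPM in neurons. The NADH dehydrogenase subunit mt:ND4 was measured at 140.5, 161 and 153 CPM in T4 and 155, 519 and 782 CPM in neurons. The level of mt:ND4 in neuron library 1 lay next to the T4 libraries, and its call was lost without any T4 library and without neuron library 2 or 3. The mitochondrial share of counts given above varied in the same way among the neuron libraries, and its part in these differences was not tested.

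Of 13 glycolysis enzymes, 9 were lower and none higher, against a 14.5% background. Pgi, phosphoglucose isomerase, was measured at 164, 147 and 160.3 CPM in T4 and 303, 301 and 319 CPM in neurons (log2 difference -0.97 ± 0.12, edgeR adjusted p = 0.00028). Gapdh2, a glyceraldehyde phosphate dehydrogenase gene, was measured at 863, 804 and 984 CPM in T4 and 1794, 1641 and 1532 CPM in neurons (log2 difference -0.91 ± 0.10, edgeR adjusted p = 0.000111). With unscaled counts 6 of the 13 were lower and 1 was higher. Of 85 cytoplasmic ribosomal protein genes, 18 were lower and none higher, and of 72 mitochondrial ribosomal protein genes, 19 were lower and none higher. The lower shares were 21.2% and 26.4%, against 14.5% of all genes. These counts of 18 and 19 fell to 3 and 1 with unscaled counts, and to 5 and 4 without T4 library 1. They also fell to 5 and 5 without T4 library 2, to 5 and 12 without neuron library 2 and to 5 and 8 without neuron library 3, and without neuron library 1 they were 18 and 11. The ribosomal gene RpS3A was measured at 252, 202 and 251 CPM in T4 and 494, 484 and 535 CPM in neurons (log2 difference -1.10 ± 0.14, edgeR adjusted p = 0.000408). Of 24 vacuolar ATPase subunits, 8 were lower (33.3%, against 14.5% of all genes) and none higher, and none was called with unscaled counts.

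Of 19 heat-shock genes, 12 were lower in T4, 63.2% against 14.5% of all genes. Among the 12 are the near-identical copies Hsp70Aa, Hsp70Ab, Hsp70Ba, Hsp70Bb, Hsp70Bbb and Hsp70Bc, so these members are not separate measurements. The summed level of the list overlapped between populations, at 4035 to 4303 CPM in T4 and 4165 to 4799 CPM in neurons. Hsp27, a small heat-shock protein gene, was measured at 0.164, 0.328 and 0.0396 CPM in T4 and 12.7, 9 and 14.1 CPM in neurons (log2 difference -6.06 ± 0.77, edgeR adjusted p = 0.000356). The Hsp70 gene Hsp70Bb, whose near-identical copies share reads, was measured at 1.16, 1.03 and 0.89 CPM in T4 and 13, 9.53 and 21.6 CPM in neurons, and at means of 310.3 CPM in Pm2 and 142 CPM in glia. The sorted populations thus differed among themselves in Hsp70 RNA, and the part of the sort in it was not tested.

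Of 28 regulators of RNA, 12 were lower in T4 and none was higher, and with unscaled counts 7 were lower and 2 higher. The 12 are 42.9% of the list, against 14.5% of all genes. The gene bru-3, an RNA-binding splicing and translation regulator, was measured at 4.03, 6.97 and 5.58 CPM in T4 and 301, 306 and 345 CPM in neurons (log2 difference -5.84 ± 0.28, edgeR adjusted p = 8.46e-07). The Elav relative fne was measured at 673, 809 and 722 CPM in T4 and 1516, 1422 and 1251 CPM in neurons (log2 difference -0.93 ± 0.16, edgeR adjusted p = 0.00216). Depletion was deep for bru-3 and modest for fne. Of 12 clock genes, 4 were lower, 33.3% against 14.5% of all genes. Among them was per, at 3.03, 2.38 and 2.37 CPM in T4 and 26.8, 27 and 25.1 CPM in neurons (log2 difference -3.34 ± 0.17, edgeR adjusted p = 8.9e-07). The mean of per in glia was 773 CPM. Among 17 genes of sex determination and dosage compensation, 4 members of the male X-chromosome complex were higher, namely mle, mof, msl-1 and msl-2. They are 23.5% of the list, against 8.67% of all genes, and 2 other members, Yp2 and tra2, were lower, 11.8% against 14.5%. The part of the sex of the flies in these calls was not tested. The gene msl-2 was measured at 166, 171 and 162 CPM in T4 and 123, 108 and 115 CPM in neurons (log2 difference 0.53 ± 0.10, edgeR adjusted p = 0.00344), while the other 3 lost their calls without T4 library 2. Without T4 library 2 or neuron library 1 the count of higher genes was 1, and without neuron library 2 or 3 it was 2.

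**Figure D4:**
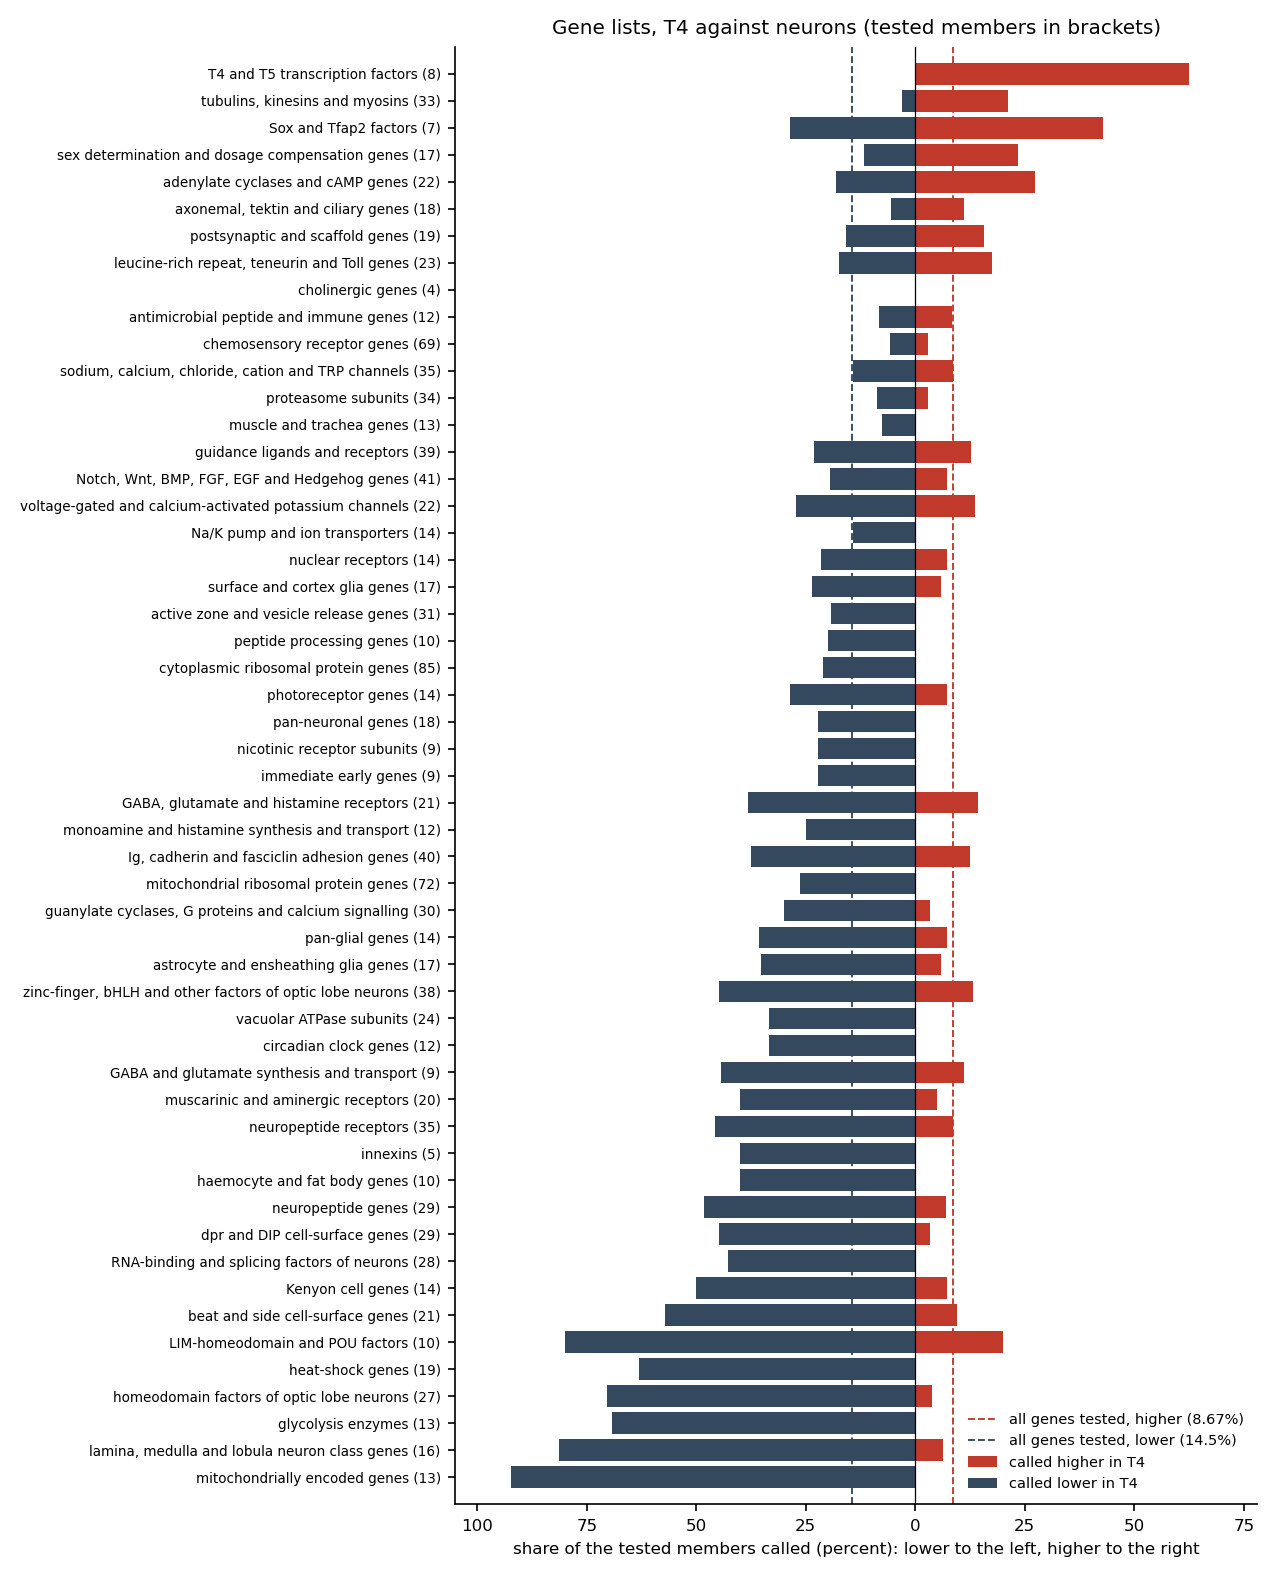
Share of the tested members of each gene list called higher in T4 (red, to the right) or lower in T4 (blue, to the left), in percent, with dashed lines at the shares of all genes tested, 8.67% higher and 14.5% lower. The list of T4 and T5 factors reaches farthest to the right, and mitochondrially encoded genes reach farthest to the left.

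Of the 913 genes higher in T4 than in neurons, 502 also had their highest mean in T4 among the 4 populations, and 837 belonged to none of the lists. The largest log2 difference among genes of at least 20 CPM was that of CG3492, at 23.8, 28.7 and 29.1 CPM in T4 and 0.29, 0 and 0.221 CPM in neurons (log2 difference 7.34 ± 0.90, edgeR adjusted p = 0.000659). Its mean was 0.608 CPM in Pm2, and glia had no count. CG6220 was measured at 15.4, 19.9 and 27.2 CPM in T4 and 0.974, 1.32 and 1.87 CPM in neurons (log2 difference 3.90 ± 0.58, edgeR adjusted p = 0.000988). CG13579, a G protein-coupled receptor gene, was measured at 645, 717 and 738 CPM in T4 and 86.7, 90.2 and 76.7 CPM in neurons (log2 difference 3.05 ± 0.61, edgeR adjusted p = 0.00476), and its call was lost in limma on TMM-scaled values. T4 stood apart from all 9 other libraries for these 3 genes, which were picked by the size of their difference or gap. Their separation thus follows largely from the choice. CG15537 reached 1207, 1436 and 1623 CPM in T4 against a mean of 129 ± 36.4 CPM (SD, n = 3) in neurons, and cutlet 29.5, 35.3 and 35.4 CPM against 4.58, 3.95 and 3.98 CPM. Both calls were lost in limma and when any 1 of the 6 libraries was left out.

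Some of the higher genes share exons with a neighbour. The DNA photolyase gene phr was measured at 49, 46.3 and 48.4 CPM in T4 and 2.79, 2.99 and 4.11 CPM in neurons (log2 difference 3.86 ± 0.24, edgeR adjusted p = 3.31e-06), with exons that overlap Prosalpha1 on the other strand. CG9628, which overlaps RecQ5 in the same way, was measured at 165, 130.1 and 142 CPM in T4 and 12.5, 15.4 and 13.2 CPM in neurons (log2 difference 3.41 ± 0.26, edgeR adjusted p = 1.06e-05). In both pairs, reads of the partner gene cannot be told apart from those of the named gene.

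**Figure D5:**
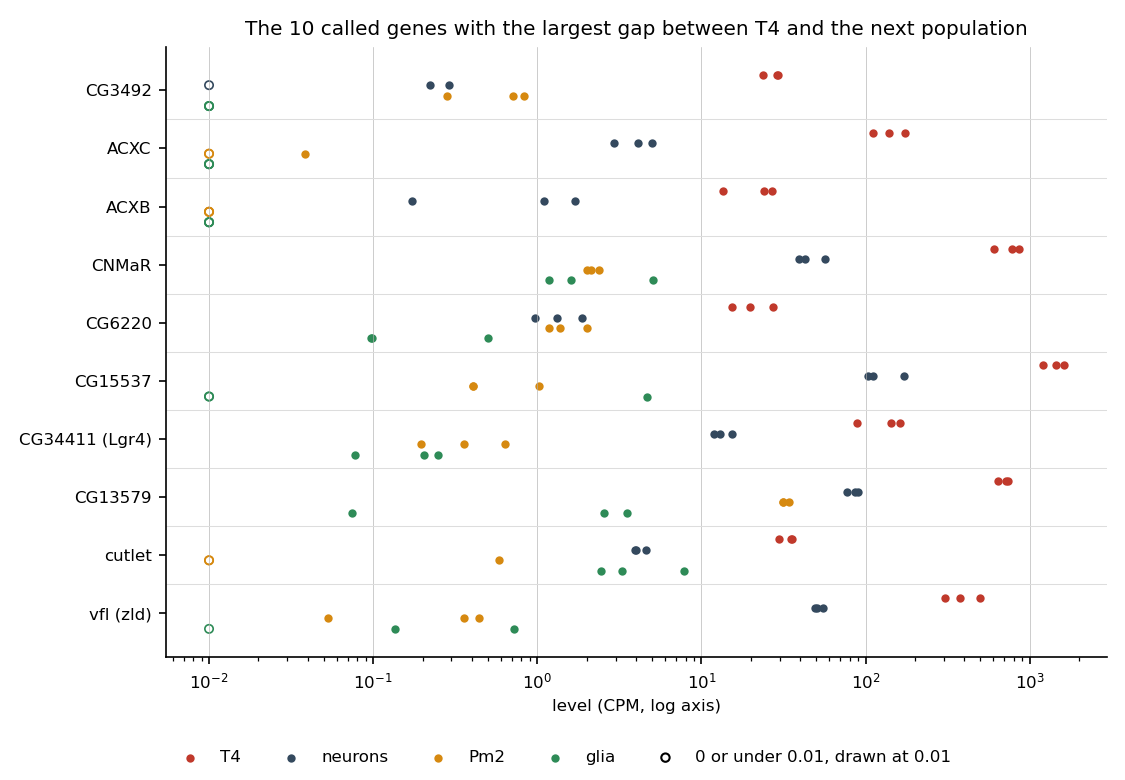
Levels of the 10 genes called higher in T4 with the largest gap to the next population, in each library of T4 (red), neurons (blue), Pm2 (orange) and glia (green), in CPM on a log axis. All T4 libraries lie to the right of every other library for each gene, which follows largely from their choice by this gap. ACXC and ACXB were at 0 in glia.

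Among the deepest losses beyond the families above were genes under 1 CPM in every T4 library, some of them without a count. CG9109 had 0 counts in T4 and 56.8, 48.1 and 49.4 CPM in neurons, at least 2647-fold lower. CG43689 had 1 count over the T4 libraries and 36.5, 43.4 and 43.9 CPM in neurons, a ratio of 6812 with a 95% counting interval of 1148 to 252854. The odorant receptor gene Or63a had 0 counts in T4 and 15.4, 10.7 and 13.8 CPM in neurons, at least 685-fold lower. Each of these was counted in all 3 neuron libraries. The membrane protein gene sosie was measured at 0.382, 0.759 and 0.455 CPM in T4 and 558, 475 and 521 CPM in neurons (log2 difference -9.93 ± 0.58, edgeR adjusted p = 2.45e-06). Fs, the follistatin gene, was measured at 0, 0 and 0.119 CPM in T4 and 24.6, 26.8 and 20.1 CPM in neurons (log2 difference -9.16 ± 1.06, edgeR adjusted p = 0.00135), and 2 T4 libraries had no count.

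The largest levels per kilobase of exon in T4 were those of the noncoding RNA gene noe, at 3601 CPM per kilobase against 16654 in neurons, and of the mitochondrial ribosomal RNA mt:lrRNA, at 2561 against 11248. Atpalpha, the sodium pump subunit, had a mean of 1542 CPM per kilobase in T4 and 1364 in neurons and was not called. Among the 10 genes at the top of this order, IA-2 and CG31221 were higher in T4, noe, mt:lrRNA and CG1746 (ATPsynC) were lower, and the other 5 were not called. On the CPM scale noe was measured at 3635, 3199 and 4802 CPM in T4 and 16341, 18880.1 and 18586 CPM in neurons (log2 difference -2.21 ± 0.15, edgeR adjusted p = 5.17e-06). Thus noe was the most abundant of the 10 per kilobase in both populations, at a lower level in T4. The calls of CG31221 and CG1746 were lost without T4 library 2.

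Markers of other cells differed in level in T4. Of the photoreceptor genes, ninaE, Rh3, Rh6 and chp had 0 counts in all T4 libraries, and in neurons ninaE was measured at 0, 1.02 and 0.516 CPM. The haemocyte genes Hml, srp and NimC1 had 0 counts in T4. The short neuropeptide F gene sNPF, high in Kenyon cells, was measured at 4.61, 9.8 and 5.12 CPM in T4 and 679.7, 1042 and 997 CPM in neurons, and ey, a Pax6 factor of Kenyon cells, at 1.74, 0 and 0 CPM and 74.2, 71.4 and 70.3 CPM. Mef2, another factor of Kenyon cells, was not called, at 138, 134 and 155 CPM in T4 and 165, 187 and 170.0 CPM in neurons. The glial receptor gene moody was measured at 2.4, 4.16 and 5.48 CPM and 1.18, 2.08 and 2.93 CPM, and the muscle myosin gene Mhc at 3.45, 0 and 0 CPM and 0.0263, 0.212 and 0 CPM, neither called. Of 14 photoreceptor genes, 4 were lower and 1, norpA, was higher, with a summed level of 990.4 to 1114 CPM in T4 and 1155 to 1246 CPM in neurons. Of 14 Kenyon cell genes, 7 were lower and 1, the exchange factor gene trio, was higher. Of 17 astrocyte and ensheathing glia genes, 6 were lower and 1 higher, and their summed level was 523 to 573 CPM in T4 and 858 to 1189 CPM in neurons. Eaat1 is also on that list and made up a large part of its sum in neurons. Lower shares of the photoreceptor, Kenyon cell and astrocyte lists were 28.6%, 50% and 35.3%, against 14.5% of all genes. Higher shares were 7.14%, 7.14% and 5.88%, against 8.67%. The part of glial RNA in single differences was not tested.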

How the data were processed

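The deposited table held whole-number counts per gene for 12 libraries, with no header on how they were made, and its name calls them normalized. The submitters' processing notes name HTSeq 0.6.1, STAR 2.5.2, Trimmomatic 0.32 and the genome build BDGP6, and per the labels' protocols SMART-Seq v4 cDNA was sequenced as paired reads of 100 bases. Strand use and settings of the counting are not given in the sources used here. Neuron columns were matched to the group and not to single sample titles, so their numbers are column numbers.

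A gene entered the fit when 3 or more of the 12 libraries held 10 or more counts of it. All libraries were fitted together with edgeR 4.0.16 in R 4.3.3, after TMM scaling, by its two-sided quasi-likelihood test. A call needed a p adjusted by the Benjamini-Hochberg method of less than 0.05. Standard errors came from the log2 difference and its F value. The procedure was tested on simulated data. Alternatives used limma 3.58.1 and DESeq2 1.42.0, other scalings and filters, the 6 libraries alone, and each library left out. Gene names were matched to the Ensembl release 115 annotation of BDGP6, 11996 by symbol and 4131 by synonym of 16272. The comparison, the 54 lists and the naming rule were chosen with earlier results of these data known. The rule took the 15 largest called differences each way at 20 CPM or more without overlap, up to 4 called members of each list by adjusted p, all members of 5 lists, the 10 genes with the largest gap to other populations, the 10 highest per kilobase, and the longest runs of neighbouring called genes. Counting intervals are 95% and cover counting error only. Lanes held 3 libraries, and which shared a lane is not given in the sources used here.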

Additional observations from a re-analysis of the deposited data

How the results depend on the processing

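The number of called genes stayed within 1.5 times 2444 under all 15 alternatives. With the counts left unscaled, 1730 genes were higher and 902 lower in T4, and 1811 of the 2444 calls were kept. The count of higher genes was 1465 in limma on quantile-normalized values and 1585 in the fit of the 6 libraries alone. Leaving out each library in turn gave 570 to 723 higher genes and 1066 to 1225 lower genes. The cause of these shifts was not tested. Of 210 named genes that were called, 155 kept their call in every alternative and none reversed. No paired analysis was possible because the titles of the neuron libraries carry numbers (4B, 8B and 10B) that the T4 libraries do not share, and their columns could not be tied to titles. Differences in genes with few counts are limited by depth, since 3 counts over the T4 libraries correspond to 0.0194 CPM.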

Other observations

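Genes called in the same direction lay side by side in places. The longest run of neighbouring higher genes held 7 genes on chromosome arm 2L between bases 18185160 and 18262298, namely CR44900, CR43413, CG31802, CR43406, CR43408, CG31788 and CR44901, most of them noncoding. The noncoding gene CR44900 was measured at 33, 36.2 and 38.7 CPM in T4 and 6.11, 6.13 and 5.19 CPM in neurons (log2 difference 2.63 ± 0.27, edgeR adjusted p = 8.02e-05). CR44901 was measured at 35.1, 41.2 and 56.1 CPM in T4 and 6.27, 5.07 and 4.43 CPM in neurons (log2 difference 3.07 ± 0.26, edgeR adjusted p = 8.39e-05). All 7 genes of the run lie within the span of the protein-coding gene CG42750, bases 18159811 to 18275770. Exons of CG42750, which was chosen after its values were seen, overlap CR43413 on the other strand. CG42750 was measured at 2071, 2332 and 2457 CPM in T4 and 380.2, 431 and 388 CPM in neurons (log2 difference 2.52 ± 0.38, edgeR adjusted p = 0.000988). Genes of the run and CG42750 were thus all several-fold higher in T4, at levels that differed widely between them. Without strand, reads of CR43413 and CG42750 cannot be told apart. The part of CG42750 RNA in the counts of the other genes of the run was not tested.

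A second run of 5 higher genes on 2L, between bases 12713276 and 12921008, held Pih1D1, MRP, kek1, ACXC and ACXB. The leucine-rich repeat gene kek1 was measured at 531, 671 and 711 CPM in T4 and 399.9, 391 and 386 CPM in neurons (log2 difference 0.70 ± 0.13, edgeR adjusted p = 0.00302). By chromosome arm, the share of tested genes that were higher was 5.32% on the fourth chromosome and 8.10% to 9.39% on the other 5 arms. The share that was lower was 21.3% on the fourth chromosome and 12.1% to 15.3% on the others, with 94 tested genes on the fourth. Of 730 tested noncoding RNA genes, 3.56% were higher and 12.9% lower, against 9.14% and 14.7% of 9595 protein-coding genes. Genes higher in T4 had a median exon length of 3639 bases and lower genes one of 1841 bases, against 1841 bases in genes that were not called. Median levels differed as well, since higher genes had a median T4 level of 79.4 CPM and lower genes a median neuron level of 28.7 CPM.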
